A study of Mus musculus with 54 samples.

Results

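Messenger RNAs of the RNA splicing factor genes were measured in mouse bone marrow progenitors. The genes were taken as every gene row with a symbol that starts with Hnrnp, Sfrs, Srsf, Snrp, Sf3a, Sf3b or Prpf. Of 27297 gene rows 69 matched, and 67 held at least 100 UMIs (unique molecular identifiers, each standing for 1 captured mRNA molecule). The rows left out were Srsf13b with 0 UMIs and the joined row of Snrpn and Snurf with 2. By name and textbook role, the 67 fell into 18 hnRNP genes, 17 SR protein genes and their relatives, 7 Sm core genes, 2 genes of U1 proteins, 10 of U2 proteins and 13 Prpf genes. Together they held 487950 UMIs, or 1.78% of the UMIs of the cells kept.

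Introns are removed by the spliceosome, which assembles on each pre-mRNA from small nuclear RNAs and their proteins. The Sm proteins form a ring around most of these RNAs, U1 proteins help to recognise the start of the intron, U2 proteins with the Sf3a and Sf3b complexes hold the branch point, and Prpf proteins belong mainly to the later, catalytic particles. SR proteins bind exons and favour their inclusion, while hnRNP proteins coat the transcript and often oppose it, so that their balance shapes alternative splicing in blood cell development.

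The cells were bone marrow progenitors that lack lineage markers and Sca1 and carry cKit, profiled by MARS-seq, a plate method that counts the 3' ends of mRNAs of single sorted cells. The C57BL/6 mice were 6 to 8 weeks old, or 14 weeks for 12 labelled samples. Each of the 54 samples is an amplification pool of wells. The groups, as the authors' well table describes the pools, were 12 pools of Cebpa KO (Cebpa flox/flox with Mx1-Cre, a Cre driven by an interferon-responsive promoter and active in many blood cells) and 6 of Cebpa control (Cebpa flox/flox), 4 of Cebpe KO (Cebpe-/-) and 2 of Cebpe control (Cebpe+/+). Sorted from the common myeloid progenitor (CMP) fraction were 2 pools of CD41+ cells (CD34+, low for FcgR), 6 of Flt3+ Csf1r+ cells and 6 of Irf8-GFP+ MHCII+ cells from mice with a GFP reporter for Irf8. The last group was 16 pools of unsorted myeloid progenitors. Poly(I:C), the interferon inducer that turns Mx1-Cre on, is named in the labels of Cebpa samples, KO and control alike, in some as 3 injections 3 weeks before harvest. The strain label of 2 control pools also names Mx1-Cre.

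GEO label and well table put 36 pools in one and the same group and disagreed on 18. Among the 18 are all 6 Cebpe pools, 6 of the 18 Cebpa pools, 4 Flt3+ Csf1r+ pools and 2 Irf8-GFP+ MHCII+ pools, so the age and treatment labels of these pools are in doubt. The targeted genes followed the table. Cebpa had 0 to 2 UMIs per pool in Cebpa KO, against 35 to 64 in Cebpa control, and Cebpe had 0 UMIs in each of the 4 Cebpe KO pools, against 21 and 40 in the Cebpe control pools. After wells under 500 UMIs were left out, 8399 cells remained, with 37 to 190 cells and 121254 to 852363 UMIs per pool. The 8 groups carried 8 mouse identifiers, 1 per group, so p-values measure only the spread between pools, which may be technical. Levels of the splicing factor genes are CPM, a gene's UMIs per 1000000 UMIs, summed over the cells of a pool. The UMI totals were scaled by TMM, edgeR's scaling between pools, for these levels but not for shares in percent of UMIs. In sums over cells, fewer cells with an mRNA and less of it per cell cannot be told apart. Each molecule is counted once at its 3' end, so levels were not divided by length. Empty wells held 6279 UMIs, of which 1.64% came from the splicing factor genes.

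The level of splicing factor mRNA was spread unevenly. In the unsorted progenitors 3 genes were above 1000 CPM, 41 between 100 and 1000, 12 between 50 and 100, and 11 below 50, with a median of 166 CPM. The 3 most abundant held 22.3% of the splicing factor mRNA and the first 12 held 50.1%. Highest was the joined row of Hnrnpa2b1, a binder of exonic and 3' RNA motifs, at 1973 ± 157 CPM (SD, n = 16 pools). The joined row of Hnrnpu, the nuclear scaffold attachment factor, followed at 1161 ± 109 CPM, and Snrpb, the Sm B protein, at 1032 ± 118 CPM. Next came Sf3b2 (718 ± 119), Srsf7 (678 ± 56.6), Hnrnpm (667 ± 43.5), Prpf8 (605 ± 76.5), Snrpd1 (554 ± 94.7), Srsf3 (524 ± 58.5), Snrpd2 (509.7 ± 124), Hnrnpd (483 ± 56.1) and Hnrnpc (485 ± 98.7), all in CPM as mean ± SD over the same 16 pools. From Sf3b2 down to Hnrnpc each differed from the next by less than the larger SD of the pair, so their order is not settled by these pools. At the low end stood Hnrnph3 (9.17 ± 4.47 CPM), Prpf39 (10.4 ± 4.88) and Prpf40b (10.5 ± 4.52). Of the 67 genes, 16 share a row with other symbols. In 11 of these rows RefSeq lists all symbols as names of 1 gene. In the other 5 (Hnrnpa2b1, Hnrnpu, Srsf10, Clasrp and Prpf3) it does not list all of them under 1 gene. Whether those 5 rows also count another gene was not checked, so their values are uncertain. Among the 16 are rows that join Hnrnpa2b1 with hnRNP A2/B1, Hnrnpu with BC033430 and AK049600, Hnrnpm with mKIAA4193, Hnrnpk with Hnrpk, Hnrnph1 with Hnrph1, Srsf3 with Sfrs3, Srsf7 with Sfrs7, Srsf11 with Sfrs11, Srsf10 with nssr 1, Clasrp with ClaspL and Sfrs16, Sugp2 with Sfrs14, Scaf4 with Srsf15, Sfswap with Srsf8, Srek1ip1 with Sfrs12ip1 and Prpf3 with AK084028.

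Across the 8 groups (TMM-scaled group sums) most of these mRNAs kept their level within a few fold. The highest group exceeded the lowest by under 2-fold for 24 genes, by 2- to 4-fold for 31 and by more for 12, with a median of 2.28-fold. Steadiest was Srsf7, an SR protein that also takes part in mRNA export, between 498 CPM in Irf8-GFP+ MHCII+ cells and 679 CPM in unsorted cells, a range of 1.36-fold. Prpf38a, a part of the precatalytic spliceosome, spanned 1.37-fold, Sf3a3, the U2 subunit next to the branch point, 1.42-fold, and Prpf6, the bridge of the tri-snRNP, 1.45-fold. At the other end Hnrnpl, which binds CA repeats, spanned 20.5-fold, Snrpe, the Sm E protein, 12.8-fold, Snrpb2, the U2 B'' protein, 12.4-fold, and Srsf9 11.5-fold. Srsf4 and Prpf39 were at 0 CPM in CD41+ cells, so no fold can be given for them. All these genes were singled out after their values were seen. The lowest level of 27 genes was in CD41+ cells, which also held the highest level of 12. The highest level of 21 was in unsorted cells and of 13 in Cebpa control. No share over all rows is given for these counts.

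**Figure D1:**
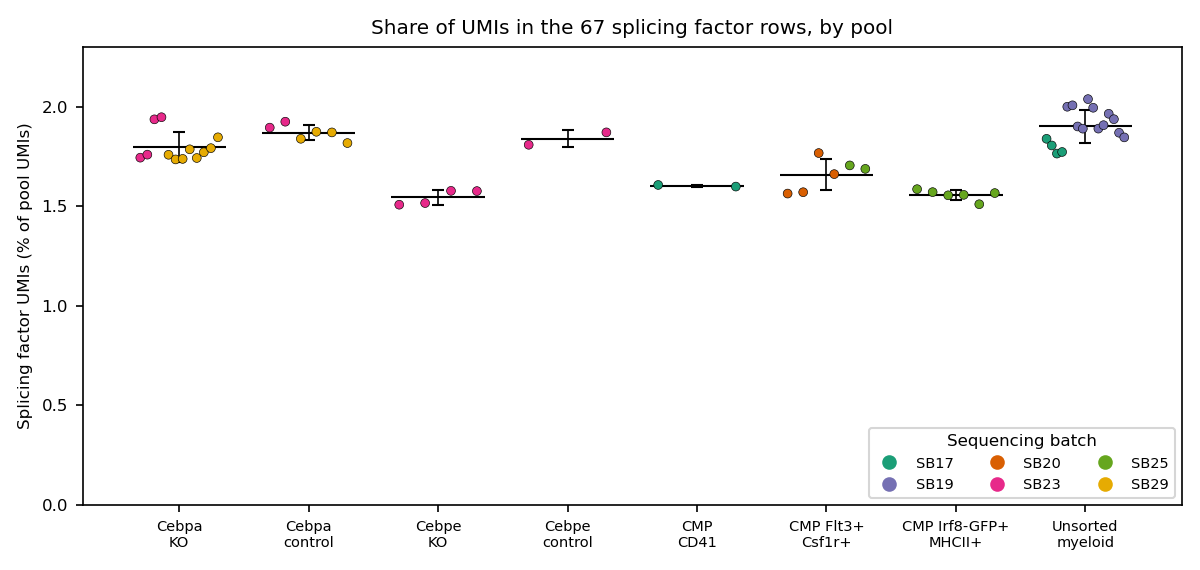
Percent of a pool's UMIs that come from the 67 splicing factor genes, each point being 1 pool, with the group mean and SD. The Cebpe KO pools lie between 1.51% and 1.58%, below both Cebpe control pools, and the 16 unsorted pools lie between 1.76% and 2.04%.

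The summed share of the splicing factor genes was lower in Cebpe KO than in its control, and lower in CD41+ and Irf8-GFP+ MHCII+ pools than in any unsorted pool, while Cebpa KO and its control overlapped. It was 1.80% ± 0.0746 of UMIs in Cebpa KO (SD, n = 12 pools), against 1.87% ± 0.0383 in Cebpa control (n = 6), ranges that overlap. In Cebpe KO it was 1.54% ± 0.0376 (n = 4), against 1.81% and 1.87% in the 2 Cebpe control pools, ranges that do not. CD41+ cells had 1.60% in both pools, Flt3+ Csf1r+ cells 1.66% ± 0.0795 and Irf8-GFP+ MHCII+ cells 1.56% ± 0.0257 (n = 6 each), all set against 1.90% ± 0.0842 in unsorted cells (n = 16). The unsorted share was itself lower in sequencing batch SB17 (1.76% to 1.84%, 4 pools) than in SB19 (1.85% to 2.04%, 12 pools). As a score over chosen genes, this share was given no test. It is a share of UMIs without TMM scaling. On the TMM scale the median log2 ratio of Cebpe KO to its control was -0.12 over the 64 members tested. The plot of the share by pool shows the single values.

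**Figure D2:**
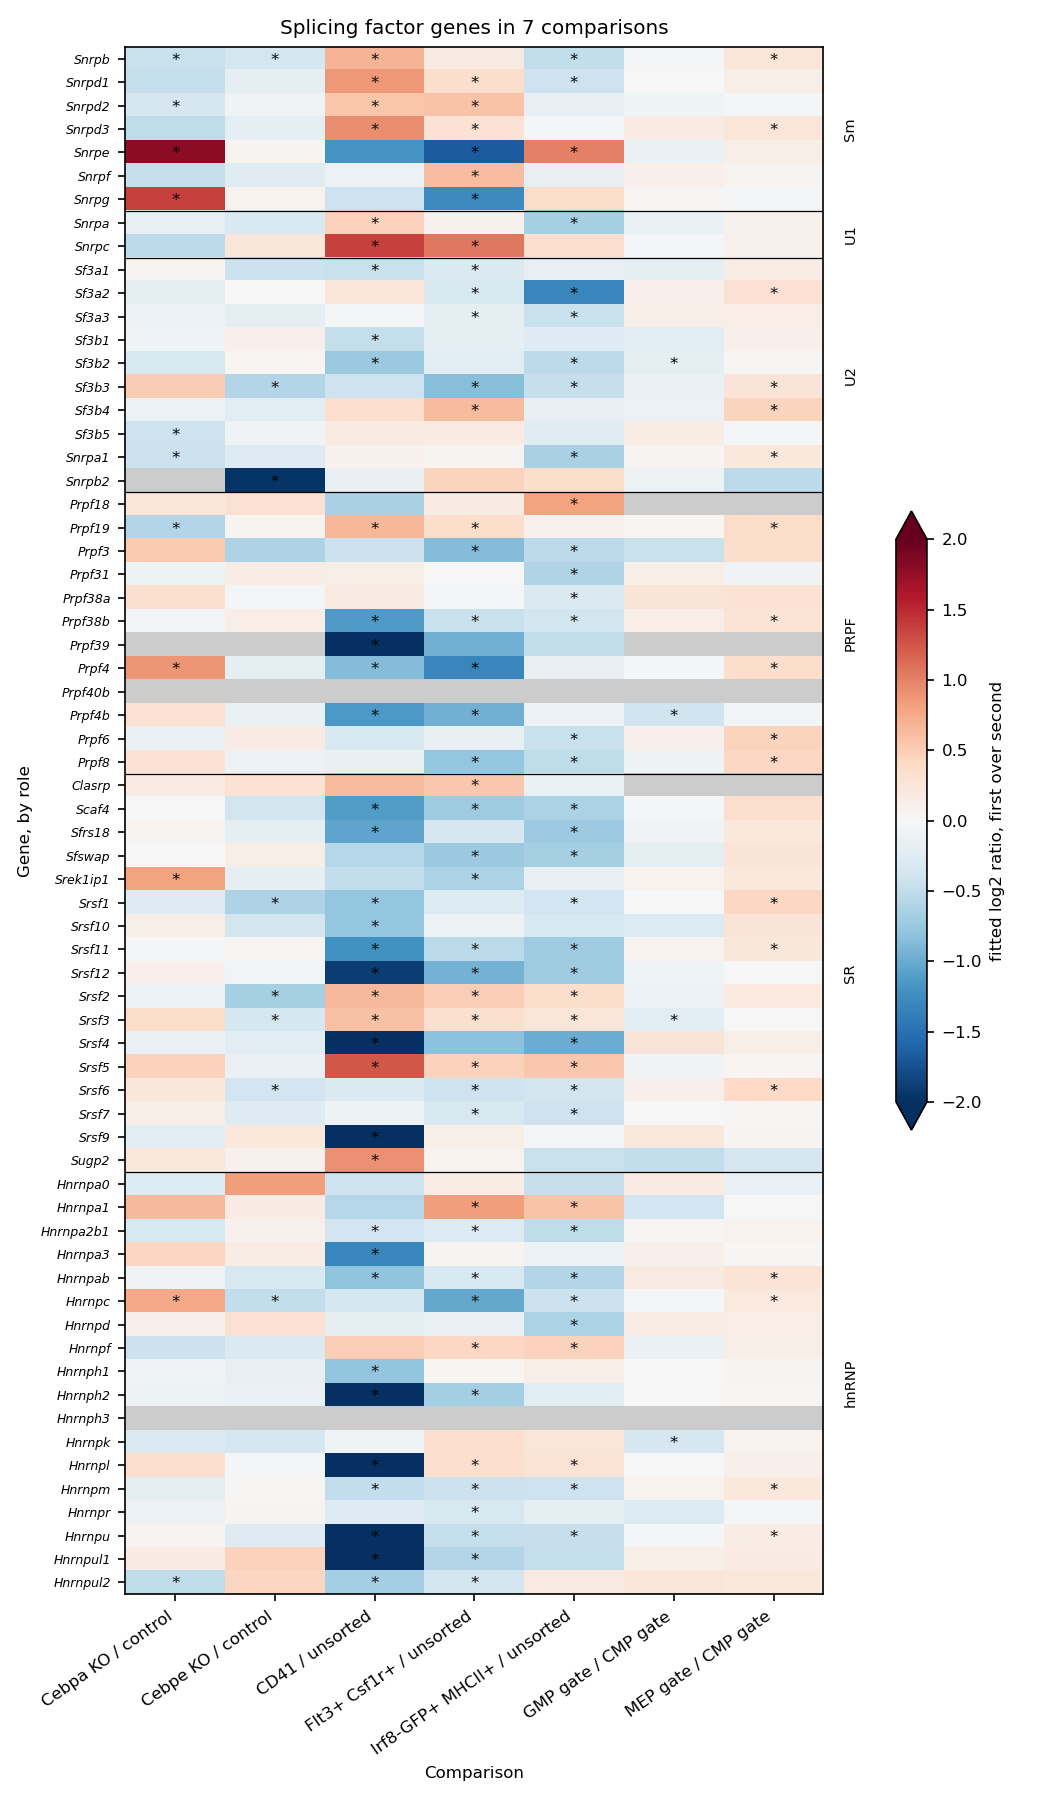
Log2 ratio of 66 of the 67 genes in the 7 comparisons, genes in rows by role and comparisons in columns, with colour limited to 2 in either direction; * marks an adjusted p under 0.05 and grey a gene not tested. The CD41 column holds most of the cells at the lower limit of the scale, and the 2 surface gate columns are pale.

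Among the unsorted progenitors the surface proteins measured at sorting divide the cells into the classical gates: the granulocyte-monocyte gate (GMP; CD34 at least 100 and FcgR at least 800, in fluorescence units), the megakaryocyte-erythroid gate (MEP; CD34 below 100 and FcgR below 800) and the CMP gate (CD34 at least 100, FcgR below 800). All 3 gates were cut from each of the 16 pools, with 797, 1172 and 707 cells. Their median depths were 3059, 4574 and 1919 UMIs per cell. Splicing factor mRNA made up 2.04% ± 0.0899 of UMIs in the MEP gate, against 1.84% ± 0.110 in the CMP gate, and the MEP share was higher in 16 of 16 pools. It made up 1.69% ± 0.0706 in the GMP gate, lower than in the CMP gate in 16 of 16 pools (SD, n = 16 for each gate). By this unscaled share the gates therefore lay in the order GMP, CMP, MEP in every pool. On the TMM scale the median log2 ratio over the 62 members tested was -0.0079 for GMP against CMP. For MEP against CMP it was 0.13.

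In the MEP gate Prpf8, the scaffold of the catalytic centre, and Srsf6, an SR protein, led the members that were higher than in the CMP gate. Prpf8 had 609, 713 and 866 CPM in the MEP gate (lowest, median and highest of 16 pools), against 379, 486 and 753 CPM in the CMP gate. It was higher in all 16 pools (log2 ratio 0.41, SE 0.06), although the gates' ranges overlap, with adjusted p = 8.26e-09 in edgeR's quasi-likelihood test with pool as a block and Benjamini-Hochberg adjustment over 5900 rows. Srsf6 had 383, 457 and 519 CPM in the MEP gate and 142, 343 and 456 CPM in the CMP gate, and was higher in 15 of 16 pools (log2 ratio 0.39, SE 0.08, edgeR adjusted p = 1.00e-05). Their promoters, 250 bases up to the annotated start (RefSeq, GRCm38.p6), are shown because these are the leading genes of the gate comparison. Prpf8 lies at chr11:75486527-75486776 and Srsf6 at chr2:162931258-162931507, both on the plus strand. Capitals mark the CCAAT box in Prpf8 and the GC box, GGGCGG, in Srsf6, each read on either strand.
Prpf8: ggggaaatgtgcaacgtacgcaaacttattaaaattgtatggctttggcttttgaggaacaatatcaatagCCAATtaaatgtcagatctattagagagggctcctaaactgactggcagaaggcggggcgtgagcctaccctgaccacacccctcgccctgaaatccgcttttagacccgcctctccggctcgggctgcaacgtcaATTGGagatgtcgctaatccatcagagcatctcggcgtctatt
Srsf6: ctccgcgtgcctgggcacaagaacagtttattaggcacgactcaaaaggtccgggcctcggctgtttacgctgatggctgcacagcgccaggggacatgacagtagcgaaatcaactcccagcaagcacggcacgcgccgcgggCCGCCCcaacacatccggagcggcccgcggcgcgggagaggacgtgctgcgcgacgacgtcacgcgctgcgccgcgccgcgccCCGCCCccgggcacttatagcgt

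Of 62 members tested between these gates, 19 were higher in MEP cells, where 25.1% of all rows were, a count near that background. It was 4 of 64 at gate limits of 50 for CD34 and 500 for FcgR, where 7.51% of all rows were, and 34 of 67 with no filter on low counts, where 16.0% were. None was lower at this threshold, where 25.2% of all rows were; at an unadjusted p under 0.05 edgeR had 23 higher and 0 lower, and DESeq2 had 16 higher and 0 lower at the adjusted threshold. The median log2 ratio was 0.13 over the members and 0.04 over all rows. By role, 6 of 10 Prpf genes, 4 of 10 U2 genes, 4 of 17 hnRNP genes, 3 of 16 SR genes and 2 of 7 Sm genes rose. Among these Prpf genes were Prpf8, Prpf6 (0.44 ± 0.13, log2 ratio ± SE), the ubiquitin ligase Prpf19 (0.37 ± 0.10), the tri-snRNP protein Prpf4 (0.35) and Prpf38b (0.27). Prpf19, for instance, had 151, 244 and 325 CPM in the MEP gate and 85.7, 145 and 260.4 CPM in the CMP gate, and was higher in 14 of 16 pools. Prpf mRNA as a whole held 0.219% of UMIs in the MEP gate, 0.162% in the GMP gate and 0.179% in the CMP gate. Of the U2 group, Sf3a2 had 360.5, 461 and 515 CPM in the MEP gate and 183, 322 and 442 CPM in the CMP gate (log2 ratio 0.30, SE 0.07, edgeR adjusted p = 0.000368). Snrpb had 935, 1147 and 1415 CPM in the MEP gate and 675, 918 and 1095 CPM in the CMP gate, higher in 15 of 16 pools. The fitted ratios of the called members were thus all under 1.5-fold, and the ranges of the genes given here overlap. Erythroid marker mRNAs (11 of 11 detected) summed to between 15664 and 18734 CPM in MEP pools and between 1573 and 6197 CPM in CMP pools, and cell cycle mRNAs (18 of 18) had medians of 6128 and 5519 CPM; their part in these differences was not tested.

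In the GMP gate 4 of 62 members were lower and none higher, where 9.05% and 11.6% of all rows were; edgeR had 6 lower and 3 higher at an unadjusted p under 0.05, and DESeq2 5 lower and 0 higher at the adjusted threshold. Hnrnpk, a binder of C-rich RNA measured as a joined row, had 202, 311 and 443 CPM in the GMP gate, against 208, 381 and 651 CPM in the CMP gate, and was lower in 11 of 16 pools (log2 ratio -0.34, SE 0.08, edgeR adjusted p = 0.0011). Prpf4b, a kinase of the spliceosome, was lower in 12 of 16 pools (-0.40 ± 0.11, adjusted p = 0.00455), Srsf3, the smallest SR protein and a joined row, in 12 (-0.23 ± 0.07, 0.0125) and Sf3b2 in 10 (-0.18 ± 0.06, 0.0411), all by the same edgeR test. The ranges overlap for each of the 4. Neutrophil markers (9 of 9) summed to between 40104 and 61005 CPM in the GMP gate and between 11016 and 33669 CPM in the CMP gate, and their part was not tested. At gate limits of 50 for CD34 and 500 for FcgR, 15 of 64 members were lower and 3 higher, where 24.9% and 27.2% of all rows were. With no filter on low counts, 1 of 67 was lower and 1 higher, where 3.39% and 5.86% of all rows were.

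**Figure D3:**
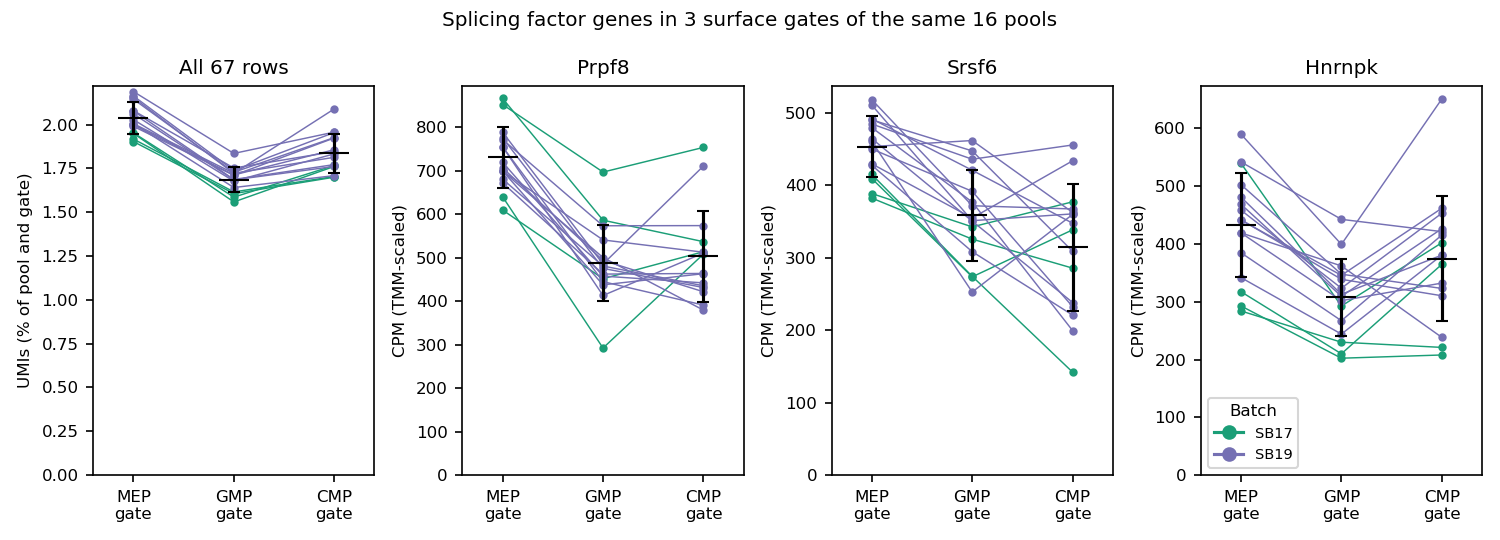
Percent of UMIs from all 67 genes, and CPM of Prpf8, Srsf6 and Hnrnpk, in the MEP, GMP and CMP gates, each line joining the gates of 1 of the 16 unsorted pools. The MEP points lie above the CMP points in 16 of 16 pools for the share and for Prpf8, in 15 for Srsf6, and the GMP points of Hnrnpk lie below the CMP points in 11.

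The unsorted pools, which came from 8 plates of 2 pools each, did not give one level for every gene. The Sm genes Snrpe and Snrpg and the U-tract binder Hnrnpc split by plate. Snrpe had 12.1, 19.3 and 24.4 CPM (lowest, median, highest) in pools 5, 6, 9, 10, 13 and 14, and 84.2, 126 and 197 CPM in the other 10 pools. Snrpg had 29.7, 41.1 and 57.5 CPM in the same 6 pools and 88.1, 102 and 197 CPM in the other 10. Hnrnpc had 327, 376 and 451 CPM, against 482, 526 and 685 CPM. For none of the 3 genes do the 2 sets of pools overlap, and the 2 pools of a plate always fell on the same side. The sets were drawn after these values were seen, so their difference is a description. An F test over the 6 plates of sequencing batch SB19, in edgeR with Benjamini-Hochberg adjustment over 7808 rows, gave adjusted p = 8.0e-16 for Snrpe, 7.69e-07 for Snrpg and 5.33e-05 for Hnrnpc.

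In each gate the median of the same 6 pools was below that of the other 10 for Snrpe, Snrpg and Hnrnpc. The ranges were not apart in every gate. In MEP cells Snrpe had 9.71 to 32.9 CPM in the 6 pools and 104 to 215 CPM in the other 10, and in GMP cells 14.5 to 44.4 CPM and 51.9 to 216 CPM, without overlap. In the sparser CMP gate the ranges of Snrpe were 0 to 43.6 CPM and 26.0 to 221 CPM and overlap. Snrpg was without overlap in MEP and GMP cells, but overlapped in CMP cells (28.9 to 127 CPM and 26.0 to 228 CPM). Hnrnpc was without overlap only in MEP cells. It had 283 to 426 CPM and 416 to 627 CPM in GMP cells, and 218 to 417 CPM and 312 to 649.6 CPM in CMP cells. Of 65 members tested, 18 differed between the 6 SB19 plates, where 21.4% of all rows did, and 33 between all 8 plates, where 29.6% did. Over the 8 plates, from batches SB17 and SB19, the highest plate mean exceeded the lowest by a median of 1.65-fold. The 2 pools of a plate differed by a median of 1.13-fold. A range over 8 values is wider than one over 2 even without a plate difference, so these 2 folds are not like measures. The widest of the members' spans were those of Snrpe (11.9-fold, between 16.2 and 194 CPM), Snrpb2 (5.26-fold) and Snrpg (5.14-fold). The 6 pools low in Snrpe also had less monocyte marker mRNA (7 of 7 genes, 739 to 992 CPM, against 1247 to 2113 CPM in the other 10) and less T or NK cell marker mRNA (82.2 to 172 CPM, against 237 to 650.0 CPM, in which Cd3g and Cd3e were at 0 in one set each). Cell cycle mRNA was 4956 to 5347 CPM in the 6 pools and 5313 to 6451 CPM in the 10. Their part in the plate difference was not tested. Tests against the unsorted pools therefore carry a wide spread for Snrpe and Snrpg.

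The promoters of the 2 Sm genes are shown because their mRNAs moved together. Snrpe lies at chr1:133610281-133610530 on the minus strand and Snrpg at chr6:86371290-86371539 on the plus strand (RefSeq, GRCm38.p6). Capitals mark an ETS motif, CCGGAAG, and a CCAAT box in Snrpg, read on either strand; none of the motifs searched matched the Snrpe window, which says only that those letters are not in it.
Snrpe: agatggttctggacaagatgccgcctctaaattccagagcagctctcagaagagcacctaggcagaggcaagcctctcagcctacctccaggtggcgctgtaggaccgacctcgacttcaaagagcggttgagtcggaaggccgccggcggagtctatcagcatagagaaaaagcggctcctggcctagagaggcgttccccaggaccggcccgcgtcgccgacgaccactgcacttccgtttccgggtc
Snrpg: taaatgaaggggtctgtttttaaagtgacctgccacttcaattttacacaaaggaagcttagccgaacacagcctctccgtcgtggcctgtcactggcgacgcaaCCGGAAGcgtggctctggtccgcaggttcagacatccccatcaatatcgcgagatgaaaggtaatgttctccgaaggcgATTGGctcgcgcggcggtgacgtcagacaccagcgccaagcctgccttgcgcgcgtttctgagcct

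CD41+ cells, the gate with megakaryocyte markers, carried less mRNA of 10 of 17 hnRNP and 8 of 17 SR genes than unsorted cells, and more of 4 of 7 Sm genes and of both U1 genes. Of 65 members tested, 26 were lower and 11 higher, where 22.5% and 18.0% of all rows were. The median log2 ratio was -0.41 over the members and -0.15 over all rows. The 10 calls among 17 hnRNP genes were all lower, whereas the 4 calls among 7 Sm genes and the 2 among the U1 genes were all higher. SR genes were divided, with 8 lower and 4 higher of 17. The lower calls also took in 5 Prpf genes and 3 U2 genes, and Prpf19 was higher. As shares of UMIs, hnRNP mRNA was 0.439% in CD41+ pools and 0.736% in unsorted pools, and Sm mRNA 0.436% and 0.305%.

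Hnrnpl had 32.0 and 11.6 CPM in the CD41+ pools, against 321, 346 and 408 CPM (lowest, median, highest) in the 16 unsorted pools. Its log2 ratio was -3.95 (SE 0.25, adjusted p = 1.12e-15 in edgeR's quasi-likelihood test with Benjamini-Hochberg adjustment over 8720 rows). The fit held the unsorted group and the 3 sorted groups together. Srsf9, an SR protein, had 32.0 and 17.4 CPM in the CD41+ pools and 182, 234 and 316 CPM in unsorted pools (-3.22 ± 0.30, edgeR adjusted p = 7.79e-11). The joined Hnrnpu row had 290.4 and 179 CPM, against 964, 1169 and 1335 CPM (-2.25 ± 0.23, 4.01e-10). Its relative Hnrnpul1 had 21.3 and 8.68 CPM, against 88.8, 129 and 199 CPM (-3.05 ± 0.59, 9.19e-05). In each of these 4 genes, picked by the test, both CD41+ pools lay below every unsorted pool. Over all 67 members the pools did not overlap for 33, in either direction, and no share over all rows is given for this. Srsf11, a joined row and an SR-related protein of the branch region, followed with 173 and 185 CPM against 326, 421 and 586 CPM (-1.20 ± 0.19, 6.7e-06). Smaller levels moved the same way for Srsf12 (-1.90) and Prpf38b (-1.14). Srsf4 and Prpf39, named after their values were seen, had 0 of 730318 UMIs in CD41+ cells, against 316 and 103 of 9878933 UMIs in unsorted cells. Set against a floor of 3 counts over the group, they were at least 7.79-fold and at least 2.54-fold lower; this limit covers counting error only. In all, 5 members and 493 of all rows (5.65%) had a log2 ratio of -3 or less.

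On the other side, Srsf5, an SR protein, had 378 and 347 CPM in the CD41+ pools, against 110, 162 and 220 CPM in unsorted pools (1.24 ± 0.17, edgeR adjusted p = 3.11e-07). Snrpd3, the Sm D3 protein, had 695 and 761 CPM, against 328, 383 and 525 CPM (0.93 ± 0.16, 1.25e-05). Snrpd1 had 869 and 1079 CPM, against 419, 550.0 and 753 CPM (0.87 ± 0.17, 0.000116), and Snrpb had 1516 and 1678 CPM, against 851, 1011 and 1252 CPM (0.68 ± 0.13, 4.54e-05). Of the U1 genes, Snrpc had 131 and 142 CPM, against 29.9, 49.6 and 82.5 CPM (1.37 ± 0.26, 7.08e-05), and Snrpa rose by a log2 ratio of 0.46. Both CD41+ pools lay above every unsorted pool for Srsf5 and for these Sm genes and Snrpc. Srsf3 (0.58), Srsf2 (0.66), Prpf19 (0.66), Snrpd2 (0.55) and Sugp2 (0.92, joined row) were the other calls, of which Sugp2, like Snrpa, was named after its value was seen. Not every Sm gene rose: Snrpe had 48.0 and 31.8 CPM in CD41+ pools, inside the unsorted range.

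Because the 2 CD41+ pools share sequencing batch SB17 with unsorted pools 1 to 4, the comparison could be made within that batch: 22 members were lower and 10 higher of 64, where 22.5% and 18.4% of all rows were. There Hnrnpl had a log2 ratio of -3.87 (edgeR adjusted p = 8.29e-07), Srsf9 of -2.92, Srsf5 of 1.56 and Snrpd3 of 0.85, so these 4 differences were about as large within the batch. The 2 CD41+ pools are, however, 1 plate of 1 mouse identifier, and 23 calls were left without pool 1 and 19 without pool 2; Srsf2 lost its call without pool 1 (0.61, edgeR adjusted p = 0.113) and Prpf19 without either. Annotated transcripts also differed in length between the called sets: the longest protein-coding transcript had a median of 3934 bases for the 25 lower members with a length and 1568 bases for the 11 higher ones, against 2955 bases over 66 members and 3060 over 7064 rows (GENCODE vM21). This was not tested. Megakaryocyte markers (7 of 7) summed to 12944 and 13861 CPM in the CD41+ pools and 72.7 to 272 CPM in unsorted pools, while erythroid markers (11 of 11) summed to 875 and 1371 CPM and 7983 to 12314 CPM; their part was not tested.

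**Figure D4:**
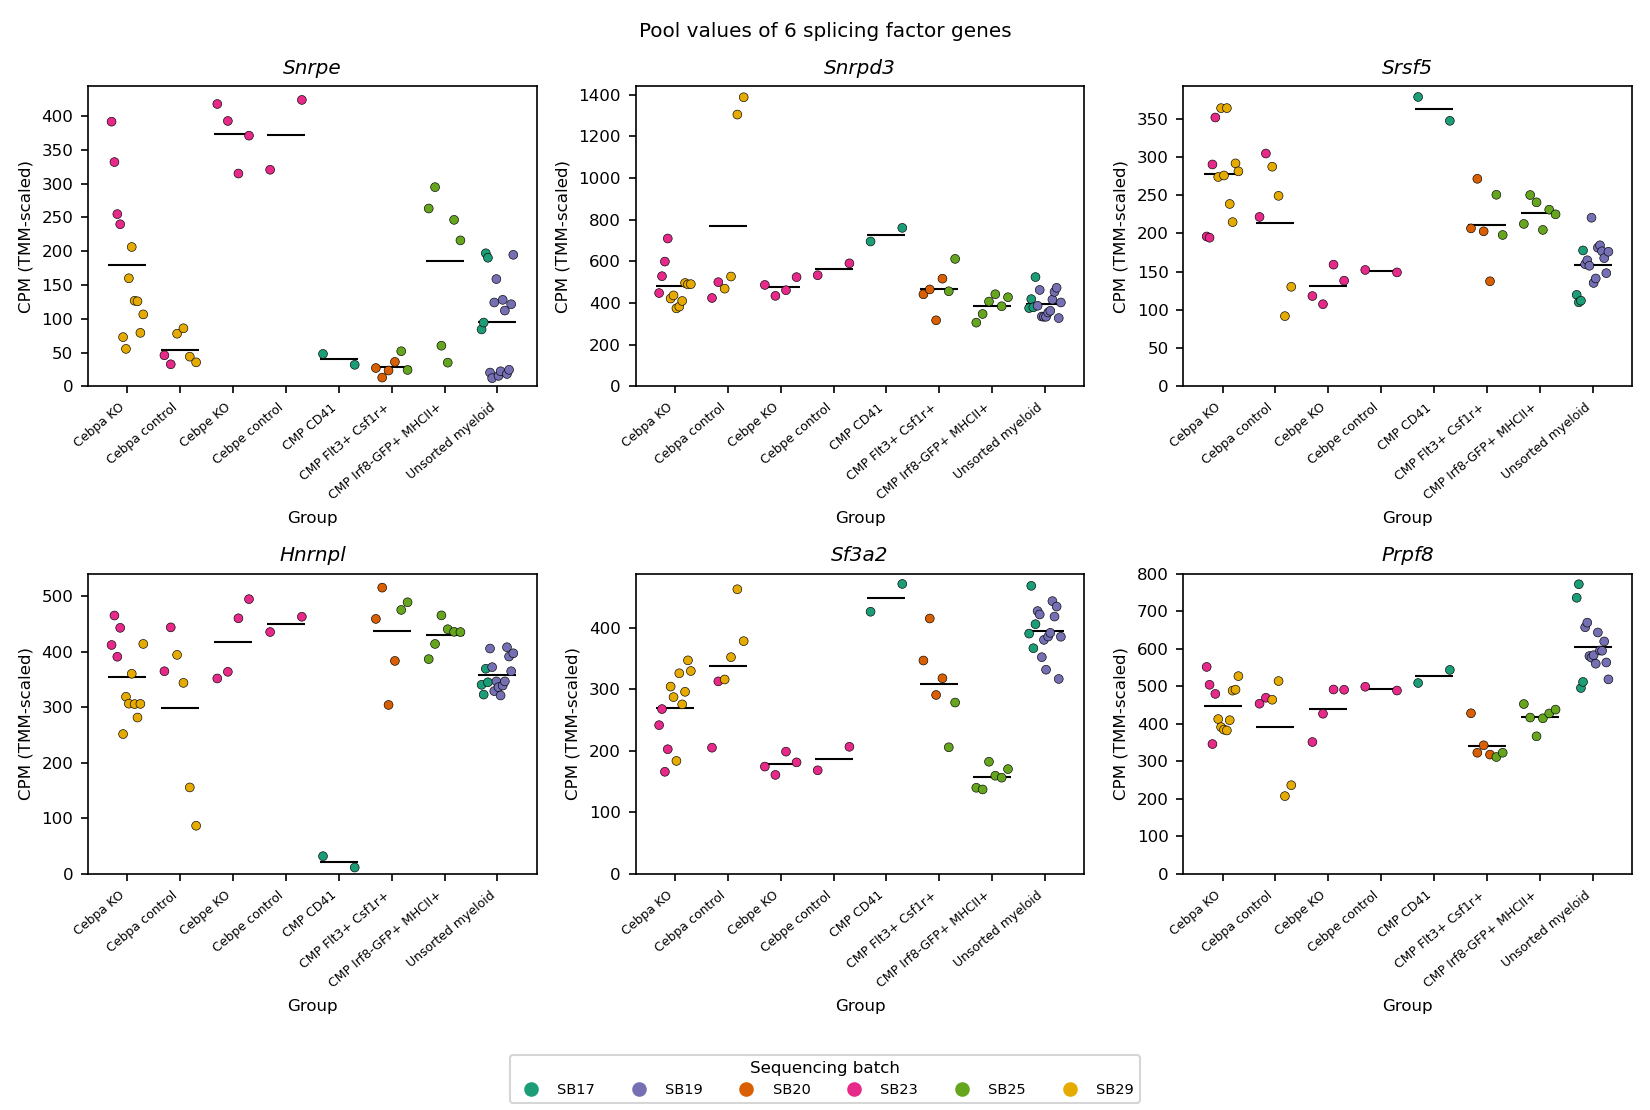
CPM of Snrpe, Snrpd3, Srsf5, Hnrnpl, Sf3a2 and Prpf8 in each of the 54 pools by group, each point being 1 pool. Hnrnpl is below 200 CPM in 4 pools, the 2 CD41+ pools and Cebpa control pools 5 and 6, and Sf3a2 is between 137 and 182 CPM in the Irf8-GFP+ MHCII+ pools.

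Part of this pattern recurred in 1 other plate. Hnrnpl was under 200 CPM in 4 of the 54 pools: the 2 CD41+ pools and Cebpa control pools 5 and 6, with 156 and 86.7 CPM. The lowest of the other 50 pools had 252 CPM. In the same 2 control pools Hnrnpu had 471 and 315 CPM, against 1071 to 1222 CPM in Cebpa control pools 1 to 4, and Snrpd3 had 1305 and 1388 CPM, against 424 to 527 CPM. Srsf5 went the other way, with 91.8 and 130.1 CPM against 221 to 304 CPM in control pools 1 to 4. Over the 64 members with a mean of at least 10 CPM, the log2 difference of these 2 control pools from the other 4 and that of CD41+ from unsorted pools 1 to 4, which share no pool, had a Pearson r of 0.42 and a Spearman rho of 0.48, and 54 of the 64 (84.4%) had the same sign. Over all 7945 such rows r was 0.36 and rho 0.39, and 65.6% had the same sign. These correlations run across genes, which are not independent replicates. They used CPM without TMM scaling, with 10 CPM added before the logarithm, and are given as a description.

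The promoters of Hnrnpl (chr7:28810640-28810889) and Srsf9 (chr5:115326927-115327176), both on the plus strand of GRCm38.p6 in RefSeq, are shown as those of the members with the smallest adjusted p in CD41+ cells. Capitals mark CCAAT and GC boxes on either strand.
Hnrnpl: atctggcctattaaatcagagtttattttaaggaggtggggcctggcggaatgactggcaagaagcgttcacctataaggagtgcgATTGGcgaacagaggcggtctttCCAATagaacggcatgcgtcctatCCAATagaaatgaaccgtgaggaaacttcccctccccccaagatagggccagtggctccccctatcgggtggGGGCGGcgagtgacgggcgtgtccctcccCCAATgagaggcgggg
Srsf9: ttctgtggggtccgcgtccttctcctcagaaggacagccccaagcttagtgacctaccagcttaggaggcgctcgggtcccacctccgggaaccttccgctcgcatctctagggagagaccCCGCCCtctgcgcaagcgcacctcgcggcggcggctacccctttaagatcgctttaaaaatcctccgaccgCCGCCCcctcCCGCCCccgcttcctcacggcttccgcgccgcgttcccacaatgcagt

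In Flt3+ Csf1r+ cells, a gate low in erythroid markers, 9 of 17 hnRNP genes were lower than in unsorted cells and 4 of 7 Sm genes higher. Of 65 members 27 were lower and 14 higher, where 27.5% and 25.8% of all rows were, and the median log2 ratio was -0.20 over members and -0.04 over all rows. Lower calls covered 9 of 17 hnRNP, 7 of 17 SR, 5 of 12 Prpf and 4 of 10 U2 genes. The Sm genes were divided, 4 being higher and 2 lower. Prpf8 had 312, 323 and 428 CPM in the 6 Flt3+ Csf1r+ pools (lowest, median, highest), against 496, 589 and 772 CPM in the 16 unsorted pools, with no overlap (log2 ratio -0.78, SE 0.09, edgeR adjusted p = 3.23e-09). Hnrnpc had 159, 223 and 334 CPM, against 327, 497 and 685 CPM, ranges that just overlap (-1.03 ± 0.14, 1.76e-07). Sf3b3, a large subunit of the Sf3b complex, had 92.9, 145 and 218 CPM, against 211, 272 and 322 CPM (-0.86 ± 0.14, 1.88e-06). Of lower abundance, Prpf4 (-1.30 ± 0.19), Prpf4b (-0.95 ± 0.16) and the joined row of Prpf3, a partner of Prpf4 in the tri-snRNP (-0.86 ± 0.17), were lower too. Snrpe had 12.9, 25.7 and 51.9 CPM and was lower by the test (-1.66 ± 0.56, 0.0131), yet its values lie within the unsorted range of 12.1 to 197 CPM, as the low unsorted plates reach the same level. Grouped by the GEO label, which moves 4 of the 6 pools, Hnrnpc had a ratio of -0.33 (edgeR adjusted p = 0.199), Prpf4 of -0.39 (0.213) and Prpf4b of -0.51 (0.0583).

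Higher in this gate were Snrpc, with 66.02, 124 and 131 CPM against 29.9, 49.6 and 82.5 CPM (1.05 ± 0.17, edgeR adjusted p = 2.88e-06), Snrpf, the Sm F protein, with 430.1, 484 and 612 CPM against 180.2, 348 and 583 CPM (0.62 ± 0.14, 0.000439), and Snrpd2, with 517, 725 and 965 CPM against 319, 500.2 and 755 CPM (0.58 ± 0.14, 0.000962). The ranges of all 3 overlap with unsorted pools. Also higher were Hnrnpa1 (0.84), Sf3b4 (0.63), Srsf2 (0.49), Srsf5 (0.47) and Srsf3 (0.32). By the GEO label Snrpf had 0.25 (edgeR adjusted p = 0.354), Snrpd2 0.13 (0.613) and Sf3b4 0.32 (0.243). Without pools 5 and 6, Srsf2 had 0.25 (0.145) and Srsf3 0.22 (0.0514). The 4 pools of batch SB20 and the 2 of SB25 share no batch with unsorted pools, so batch and gate cannot be told apart. Erythroid markers summed to 88.3 to 140 CPM in the gate, against 7983 to 12314 CPM in unsorted pools; their part was not tested.

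In Irf8-GFP+ MHCII+ cells, which carry dendritic cell markers, most calls were lower. Of 65 members 29 were lower, where 27.8% of all rows were, and 8 higher, where 28.3% were; the median log2 ratio was -0.32 over members and 0.00 over all rows. Lower were 9 of 17 SR, 6 of 17 hnRNP, 6 of 12 Prpf and 5 of 10 U2 genes. Sf3a2, a subunit of Sf3a, had 137, 158 and 182 CPM in the 6 sorted pools, against 317, 391 and 468 CPM in unsorted pools, without overlap (-1.31 ± 0.11, edgeR adjusted p = 6.04e-13). In batch SB23 the 6 Cebpe pools had 161 to 207 CPM and the 4 Cebpa KO pools 166 to 268 CPM, ranges that reach into that of the sorted pools. Over all 12 pools of SB23, which include 2 Cebpa control pools, the range was 161 to 313 CPM. The 2 Flt3+ Csf1r+ pools of SB25, the batch of the Irf8-GFP+ MHCII+ pools, had 206 and 279 CPM, and the 4 of SB20 had 291 to 415 CPM. Hnrnpa2b1 had 1297, 1337 and 1467 CPM, against 1723, 1932 and 2315 CPM, again without overlap (-0.51 ± 0.08, 3.25e-06). Prpf8 had 367, 422 and 453 CPM, against 496, 589 and 772 CPM (-0.51 ± 0.09, 4.77e-06). Snrpa1, the U2 A' protein, fell by 0.65 on the log2 scale, Srsf11 by 0.72, Snrpb by 0.50, Snrpa by 0.66 and Prpf31, a tri-snRNP protein, by 0.60; Snrpa and Prpf31 were named after their values were seen. Lower calls thus occurred in every role group, with 1 of 2 U1 genes and 2 of 7 Sm genes among them.

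Srsf5 rose, with 205, 228 and 250.1 CPM against 110, 162 and 220 CPM in unsorted pools (0.53 ± 0.11, edgeR adjusted p = 0.000126). Prpf18, a factor of the second splicing step, had 46.7, 52.2 and 63.7 CPM, against 21.2, 30.7 and 44.0 CPM, without overlap (0.80 ± 0.19, 0.000398). Hnrnpl, lowest in CD41+ cells, was higher here (0.28 ± 0.09, 0.00823), as were Hnrnpf (0.47), Hnrnpa1 (0.56), Srsf2 (0.35) and Srsf3 (0.24). Snrpe had 263, 295, 60.1, 35.1, 246 and 216 CPM in pools 1 to 6. Pools 3 and 4, from 1 plate, were thus far below the other 4, and all but those 2 lay above the unsorted maximum of 197 CPM (1.02 ± 0.40, edgeR adjusted p = 0.0281). The call was lost in 6 of 11 alternatives, among them leaving out pools 1 and 2 (0.63, edgeR adjusted p = 0.293) or pools 5 and 6 (0.85, 0.144). Without pools 3 and 4, Srsf2 had 0.19 (0.262) and Hnrnpa1 0.47 (0.0909). This gate too shares no batch with unsorted pools, and its cells came from the Irf8 reporter mice. Batch, reporter and gate can therefore not be told apart. Dendritic markers (7 of 7) summed to 12196 to 19329 CPM in the gate and 57.0 to 366 CPM in unsorted pools, and their part was not tested.

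Cebpa is the transcription factor needed to form granulocyte-monocyte progenitors, and few splicing factor genes differed between Cebpa KO and Cebpa control pools. Of 63 tested, 5 were higher and 6 lower in KO cells, where 9.59% and 8.58% of all rows were, a count close to that background, with medians of -0.05 over members and 0.02 over all rows. Snrpe and Snrpg rose most. Snrpe had 55.4, 143 and 392 CPM in the 12 KO pools (lowest, median, highest), against 45.9, 32.6, 77.9, 85.9, 43.9 and 35.5 CPM in the 6 control pools (log2 ratio 1.80, SE 0.36, edgeR adjusted p = 0.000857). Snrpg had 97.2, 147 and 266 CPM in KO pools, against 62.1, 82.6, 81.0, 106, 31.9 and 15.8 CPM in control pools (1.37 ± 0.28, 0.00111). The highest control pools overlap with the lowest KO pools for both genes. In the KO pools of batch SB23 Snrpe was 240.0 to 392 CPM and in those of SB29 55.4 to 206 CPM. Within SB23 the log2 ratio of Snrpe was 3.07 (edgeR adjusted p = 4.95e-09) and within SB29 0.93 (0.081); for Snrpg these were 1.84 (1.01e-06) and 0.96 (0.0572). In edgeR's test of the difference between batches none of 63 members passed (0.0143% of all rows did); without control pools 5 and 6, left out after their values were seen, Snrpe and Snrpg passed (2.60% of all rows did).

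Snrpb had KO and control pools that did not overlap: 881, 943 and 1067 CPM in KO pools, against 1216, 1326, 1143, 1136, 1799.6 and 1897 CPM in control pools (-0.44 ± 0.11, edgeR adjusted p = 0.00647). Sf3b5, the small Sf3b subunit, had 439, 502 and 547 CPM, against 562, 531, 577, 626, 1065 and 990 CPM (-0.41 ± 0.13, 0.027). Prpf19 (-0.58), Hnrnpul2 (-0.51), Snrpa1 (-0.42) and Snrpd2 (-0.34) were lower as well. Hnrnpc had 414, 471 and 578 CPM in KO pools, against 311, 413, 464, 486, 124 and 55.2 CPM in control pools, and was higher (0.75 ± 0.25, 0.0322), as were Prpf4 (0.88 ± 0.31, 0.0432) and Srek1ip1, a joined row (0.81 ± 0.26, 0.0305). In these genes control pools 5 and 6, which are 1 plate, lay farthest from the KO pools. Without these 2 pools 4 members were called, 3 of them shared with the 11. Snrpe (1.63), Snrpg (1.05) and Snrpb (-0.24) were called, and Hnrnpc (0.32, adjusted p = 0.0669), Prpf4 (0.51, 0.166), Prpf19 (-0.19, 0.48) and Sf3b5 (-0.12, 0.424) were not, all in edgeR. Of the 11 called members, Snrpe, Snrpg, Hnrnpc, Prpf4, Sf3b5 and Snrpd2 also differed between unsorted plates of SB19, and the other 5 did not pass that test. Neutrophil markers (9 of 9) summed to 132 to 1333 CPM in KO pools and 10569 to 19473 CPM in control pools, and erythroid markers to 13709 to 16196 CPM and 8219 to 13982 CPM; their part was not tested.

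Cebpe is a transcription factor of late granulocyte maturation, and few members were called between its genotypes. Of 64 members 8 were lower in KO cells, where 9.85% of all rows were, a count near that background. None was higher, where 13.5% of all rows were. At an unadjusted p under 0.05 edgeR had 13 lower and 3 higher, and DESeq2 had 5 lower and 0 higher at the adjusted threshold. The median was -0.12 over members and -0.01 over all rows. The 8 were 4 SR genes, 2 U2 genes, Hnrnpc and Snrpb. Snrpb2 had 7.38, 14.6, 12.7 and 15.0 CPM in the 4 KO pools, against 50.7 and 52.6 CPM in the 2 control pools (-1.96 ± 0.39, edgeR adjusted p = 0.000383). The control pools were the high ones here, as the other 6 pools of batch SB23 had 0 to 8.70 CPM. Sf3b3 had 172, 181, 199 and 235 CPM, against 314 and 303 CPM (-0.59 ± 0.16, 0.0057). Srsf2, an SR protein that binds exonic enhancers, had 91.0, 120, 118 and 113 CPM, against 188 and 177 CPM (-0.67 ± 0.18, 0.00689). Hnrnpc had 472, 403, 535 and 486 CPM, against 672 and 706 CPM (-0.49 ± 0.13, 0.00726).

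The remaining SR calls were of like size. Srsf1, the founding SR protein, had 68.9, 48.8, 73.2 and 64.9 CPM in KO pools, against 105 and 99.9 CPM in control pools (-0.62 ± 0.23, edgeR adjusted p = 0.0474). Srsf6 had 270.5, 303, 356 and 358 CPM, against 414 and 464 CPM (-0.39 ± 0.14, 0.049). Srsf3 had 507, 437, 503 and 531 CPM, against 600.4 and 713 CPM (-0.36 ± 0.13, 0.0486), and Snrpb had 735, 674, 751 and 716 CPM, against 913 and 997 CPM (-0.36 ± 0.12, 0.0326). In all 8 genes every KO pool lay below both control pools, but these genes were picked by the test on the same pools. Over all 67 members the pools did not overlap for 20, in either direction. No share over all rows is given for this. None of the 6 pools has the same group in its GEO label, and grouped by the label 4 members were higher and none lower. The control pools are 1 plate; 2 calls were left without control pool 1, 3 without control pool 2, and 4 without KO pool 2 or KO pool 4. Neutrophil markers summed to 49731 to 54780 CPM in KO pools and 14412 to 16010 CPM in control pools, and erythroid markers to 2936 to 4257 CPM and 10186 to 12043 CPM; their part was not tested.

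Other genes of the splicing machinery, a list of 113 outside the name rule that includes Lsm, Ddx, U2af and Rbm genes and was chosen with earlier results known, was counted in the same fits. In CD41+ cells 42 of 108 tested were lower and 10 higher (median log2 ratio -0.49), where 22.5% and 18.0% of all rows were. In Flt3+ Csf1r+ cells the counts were 48 and 11 (-0.32), where 27.5% and 25.8% of all rows were. In Irf8-GFP+ MHCII+ cells they were 45 and 13 (-0.23), where 27.8% and 28.3% of all rows were. In the MEP gate 35 of 104 were higher and 8 lower (0.14), where 25.1% and 25.2% of all rows were. In the GMP gate 6 were higher and 3 lower (0.01), where 11.6% and 9.05% of all rows were. In Cebpa KO 8 of 106 were higher and 6 lower (-0.02), where 9.59% and 8.58% of all rows were. In Cebpe KO 4 of 107 were higher and 10 lower (-0.12), where 13.5% and 9.85% of all rows were.

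RefSeq gave a promoter window of 250 bases for 59 of the 67 members. Searched on both strands, ETS (CCGGAAG) matched in 32.2% of the members and 7.83% of 27025 genes, E2F (TTCCCGCC) in 15.3% and 2.13%, the GC box (GGGCGG) in 67.8% and 35.4%, and the CCAAT box in 47.5% and 37.5%. The NRF1 motif matched in 1.69% and 0.877%, the TBP-type letters TATAAA in 10.2% and 14.3%, the GATA-factor letters AGATAA in 5.08% and 11.4%, and CEBP (TTGCNNAA) in 11.9% and 10.8%. The YY1 motif matched no member and 0.248% of genes. Each match is a description of the letters in a window.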

How the data were processed

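Single cells of mouse bone marrow were profiled by MARS-seq, and 54 amplification pools were analysed. The deposited values are counts of UMIs per gene and well, made by the authors from reads demultiplexed with bcl2fastq 2.15.0.4 and the mm9 genome build, per the submitters' processing notes; for the aligner, the tool was not given in the sources used here. The surface intensities of CD34 and FcgR in the deposited well table are the authors' values from the index sort, in fluorescence units as deposited. Counting error alone sets the floor of 3 counts.

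Groups were taken from the authors' well table, since the GEO label disagreed with it for 18 pools. Cells with at least 500 UMIs were summed per pool. edgeR 4.0.16 in R 4.3.3 was run on these sums over all gene rows with TMM scaling, its filter on low counts, the quasi-likelihood test and Benjamini-Hochberg adjustment at 0.05. The unsorted group and the 3 sorted groups shared 1 fit without a block. Gates with at least 10 cells in a pool were fitted with the pool as a block, the pairing being that 3 gates come from the same pool and mouse. The self-test on simulated data with known changes was run first. No 2 pools were duplicates: among 1431 pairs, chi-square divided by its degrees of freedom was at least 1.35.

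Members and gene lists were chosen with earlier results of these data known. Named genes were the 12 most abundant members in unsorted pools, up to 8 called members with the smallest adjusted p per direction and comparison, the 3 largest log2 ratios among members reaching 100 CPM in either group, and the Sm genes. Alternatives were DESeq2 1.42.0, other size factors, no filter, other cell minimums and gate limits, sums per plate, the GEO label's groups, and pools, plates or batches left out. Wells without a cell entered no comparison. Counts are over all members, but 1 member and 1 marker gene are not reported here by name.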

Additional observations from a re-analysis of the deposited data

Results flagged for a closer look

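Over 90 groups of values, 3 had a highest or lowest pool far from the others by Dixon's 95% limit, where chance gives about 1 in 20. Prpf8 had 428 CPM in Flt3+ Csf1r+ pool 1, against 312 to 343 CPM in the other 5 pools. Srsf11 had 410.5 CPM in Flt3+ Csf1r+ pool 3, against 232 to 293 CPM in the other 5. Hnrnpul1 had 87.9 CPM in Cebpe KO pool 2, against 135 to 138 CPM in the other 3.

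With all pools, none of 63 members and 1 of 6993 rows (0.0143%) passed edgeR's quasi-likelihood test of whether the ratio of Cebpa KO to Cebpa control differed between the sequencing batches, and Snrpe had -2.15 (Benjamini-Hochberg adjusted p = 0.106). Without Cebpa control pools 5 and 6, a choice made after the values were seen, 184 of 7086 rows (2.60%) and 2 members passed. There the log2 ratio in SB29 minus that in SB23 was -2.53 for Snrpe (edgeR's quasi-likelihood test of the interaction, Benjamini-Hochberg adjusted p = 0.000509) and -1.42 for Snrpg (adjusted p = 0.00462). The age and injection labels also change between these batches, so batch, age and treatment cannot be told apart.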

How the results depend on the processing

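Of 1165 values of named genes under the alternatives, 977 kept direction and call, 176 kept direction but lost the call, 5 gained it and 7 reversed. All 7 reversals came with groups by the GEO label: in Cebpa KO Snrpe -0.29 and Snrpg -0.092; in Cebpe KO Srsf2 0.87, Snrpb 0.58, Srsf1 0.21, Srsf3 0.20 and Srsf6 0.17. The 11 calls in Cebpa KO became 7 in pools grouped alike by both sources, 1 by the GEO label, 2 summed per plate, 5 within SB23 and 7 within SB29. They became 7 without KO pools 1 and 2, 5 without KO pools 7 and 8 or 11 and 12, 22 without control pools 3 and 4, and 4 without control pools 5 and 6. The 8 calls in Cebpe KO became 5 with DESeq2, 4 with no filter, 4 by the GEO label and 2 per plate, and lay between 2 and 8 with 1 pool left out. The 37 in CD41+ cells became 19 or 23 with 1 pool left out, and the 41 in Flt3+ Csf1r+ cells 27 per plate. In the GMP gate 4 became 2 with no filter, 18 at limits of 50 for CD34 and 500 for FcgR, and 2 at 150 and 1200. In the MEP gate 19 became 34 with no filter and 4 at 50 and 500. Without the replicate block of gates in 1 pool, 2 were called in GMP and 11 in MEP cells. The cause was not tested. Apart from the gate fits with no filter or at 50 and 500, no share of all rows is given beside these counts. A change in the members and a change in the whole fit can therefore not be told apart. The same holds for counts from left-out pools, the GEO label, DESeq2 and unadjusted p-values in the sections above. Leaving out plates, the batch covariate and the batch interaction were chosen after seeing the data. Fits within a batch were not run for Flt3+ Csf1r+ and Irf8-GFP+ MHCII+ cells, which share none with unsorted cells, nor same-label fits for Cebpe. Between the sorted or KO groups and their references, no paired analysis was possible because replicate numbers there only name pools. Depth limits the genes under 50 CPM most.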
